A study of Arabidopsis thaliana with 6 samples.

Results

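The autophagy genes described here are those whose probe sets are assigned to exactly 1 gene with a symbol made of ATG and a number directly after it. The rule found 8 probe sets for 8 genes among the 22810 probe sets of the array, of which 13513 carried 1 gene symbol. They are ATG3 (AT5G61500) and 7 genes of the ATG8 family, ATG8B (AT4G04620), ATG8C (AT1G62040), ATG8D (AT2G05630), ATG8E (AT2G45170), ATG8F (AT4G16520), ATG8G (AT3G60640) and ATG8H (AT3G06420). The members were chosen by their symbol, with no measured value, but the family itself was selected on earlier results of these same 6 arrays, and which comparison weighed in that is not recorded. The calls and counts below therefore describe it and are no independent evidence that it changed. A pair of further ATG8 genes carry an older symbol and fall outside the rule. They are APG8A (AT4G21980, also called ATG8A) and APG8H (AT3G15580, also called ATG8I, and a different gene from ATG8H), and their values are given beside those of the family.

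Autophagy encloses cytoplasm, protein aggregates or organelles in a double membrane, the autophagosome, and delivers them to the vacuole for breakdown. ATG8 is a small ubiquitin-like protein that is attached to phosphatidylethanolamine of the growing membrane, where it also binds cargo receptors. The attachment needs the protease ATG4, the activating enzyme ATG7 and the conjugating enzyme ATG3. Arabidopsis has several ATG8 genes, which fall by sequence into the subgroups ATG8A to ATG8D, ATG8E to ATG8G, and ATG8H with ATG8I. In leaves, autophagy is known to carry parts of chloroplasts, and damaged whole chloroplasts, to the vacuole.

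Transcript levels were measured on 6 Affymetrix ATH1 arrays, which read each transcript with a set of short probes, in whole Arabidopsis thaliana seedlings of Landsberg background, 14 days old, with 4 rosette leaves and grown in constant light. All seedlings carried T-DNA. Control seedlings, labelled Ler-0, held only the empty vector PER-10. They received a spray of the inducer, 2 µM 17-B-estradiol, at day 13 and were harvested 24 h later. Seedlings of temporal induction, labelled Ler-1, received 1 such spray at the same age. Those of prolonged induction, also labelled Ler-1, grew on inducer from sowing and got a spray every 24 h up to harvest. The labels write 7-B-estradiol for both induced groups, read here as the same compound. The study concerned nuclear gene expression when chloroplast division is inhibited, and the labels do not name the transgene that inhibits it. Each group had 2 arrays. No group held the induced line without inducer, so a constant difference between the lines and a response to induction cannot be told apart. No control grew on inducer from sowing or got a spray every 24 h. A response to the longer exposure to inducer and spraying thus cannot be told apart from prolonged induction of the transgene. The labels do not say whether replicates are separate cultures, so each p-value takes in no more than the spread among these arrays, which may be technical. In whole seedlings, fewer cells of a type and less RNA per cell cannot be told apart either.

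Median signal was 53.0 to 58.7 per array. RNA integrity was read from control probe sets as the 3' signal over the 5' signal, which ran from 1.82 to 2.67 in GAPDH, from 3.19 to 6.14 in actin and from 1.58 to 1.87 in ubiquitin. Differences below are in log2 units, each with its standard error from a limma fit over all 6 arrays. The threshold was an adjusted p (Benjamini-Hochberg) under 0.05 over the 15922 probe sets tested, after the 30% with the lowest mean signal were left out. All 8 ATG probe sets lay above that limit, a signal of 23.5. Levels are compared between groups within a probe set and not between probe sets.

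Prolonged induction was set against control to see how these genes differed in seedlings kept on inducer from sowing. ATG8C, ATG8E and ATG8F rose, by 1.54-fold to 2.30-fold, while ATG8B, ATG8D, ATG8G, ATG8H and ATG3 did not pass. Thus 3 of 8 rose and 0 fell, where 3.77% of all probe sets tested rose and 3.18% fell. The median log2 difference of the 8 was 0.49, against −0.02 over all probe sets tested. For 7 of the 8, all of them ATG8 genes, both prolonged arrays lay above both control arrays, where 23.2% of all probe sets tested did.

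ATG8E, of the ATG8E to ATG8G subgroup, had the largest difference of the 8. It read 117 and 92.3 on the control arrays, 282 and 201 on the prolonged arrays and 207 and 218 on the temporal arrays. All 4 induced arrays thus lay above both control arrays, while the 2 prolonged arrays enclosed the temporal ones. The mean signal went from 104 ± 17.2 in control to 242 ± 57.4 after prolonged induction (SD, n = 2 arrays each). The log2 difference was 1.20 ± 0.23 (SE, limma adjusted p = 0.00937).

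ATG8F, of the same subgroup, read 775 and 678 on the control arrays, 1246 and 1006 on the prolonged arrays and 1004 and 977 on the temporal arrays. Its groups followed each other without overlap, with control lowest and prolonged induction highest, although prolonged replicate 2 and temporal replicate 1 were almost level. The mean went from 727 ± 68.6 to 1126 ± 169 after prolonged induction, a log2 difference of 0.63 ± 0.14 (limma adjusted p = 0.0247). ATG8G, the other gene of this subgroup, read 91.0 and 77.7 in control, 96.4 and 97.3 in the prolonged group and 87.4 and 86.7 in the temporal group. Its prolonged arrays lay just above the controls and its temporal arrays lay between them. The log2 difference of prolonged induction from control was 0.20 ± 0.27, with a 95% interval of −0.39 to 0.79, and did not pass.

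**Figure D1:**
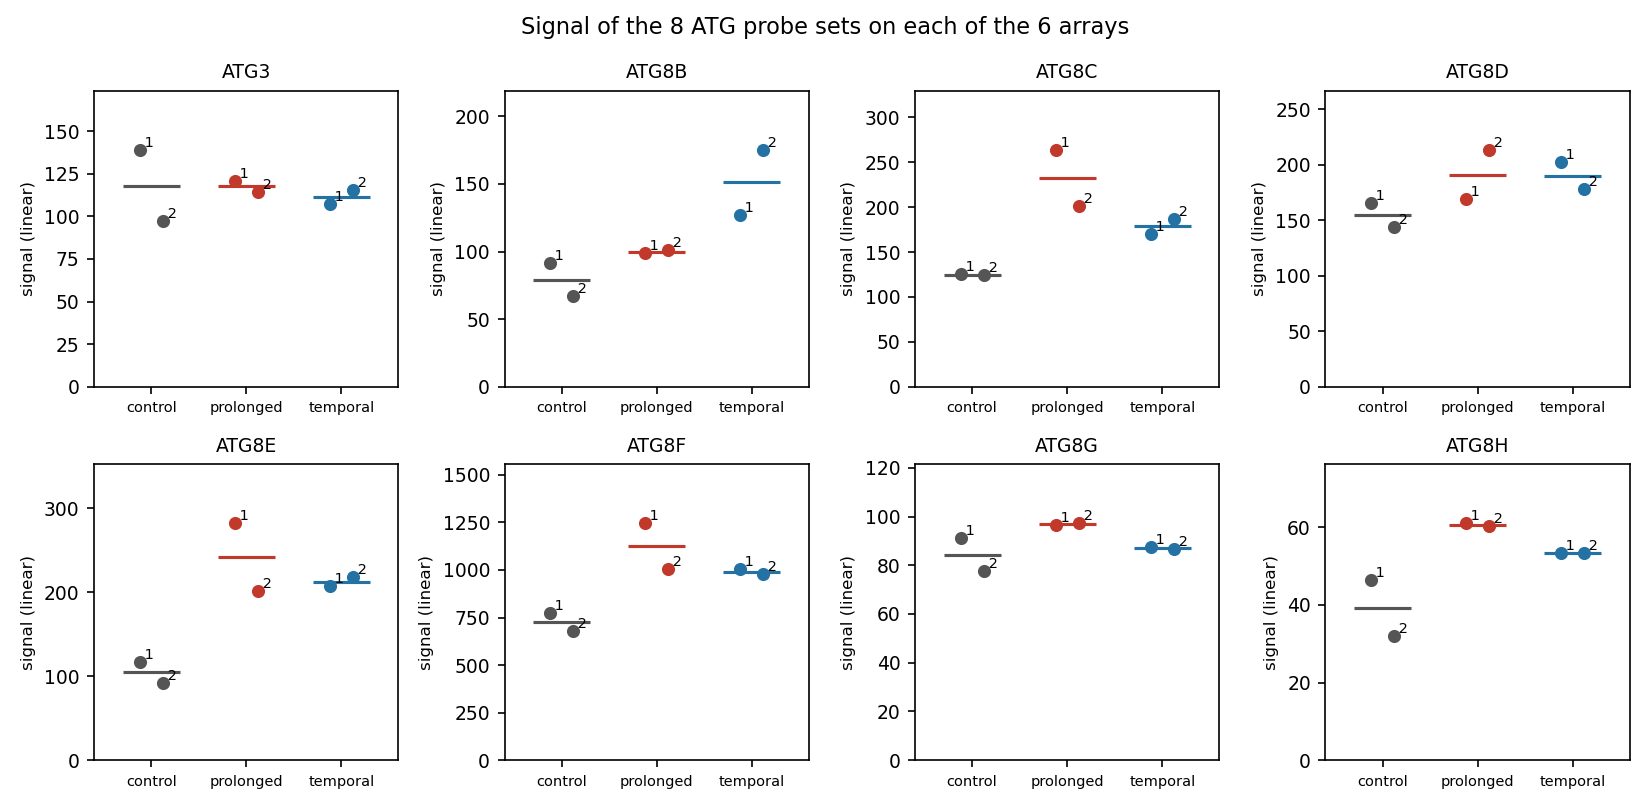
Signal on a linear scale for each of the 8 ATG probe sets, with points for the 2 arrays of each group, numbered by replicate, and lines for the group means. Both prolonged arrays lie above both control arrays in the 7 ATG8 panels, and control replicate 1 lies above control replicate 2 in all 8.

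In the ATG8A to ATG8D subgroup, ATG8C read 125 and 124 on the control arrays, 264 and 201 on the prolonged arrays and 171 and 187 on the temporal arrays. Its 3 groups did not overlap, and the 2 control arrays were nearly equal. The mean went from 125 ± 1.11 to 233 ± 44.5 after prolonged induction, a log2 difference of 0.89 ± 0.21 (limma adjusted p = 0.0269). ATG8B read 91.8 and 66.8 in control, 98.9 and 101 in the prolonged group and 127 and 175 in the temporal group, and was the only one of the 8 with its highest mean after temporal induction. ATG8D read 166 and 144 in control, 169 and 213 in the prolonged group and 202 and 178 in the temporal group, so that its induced groups overlapped. In ATG8B and ATG8D the log2 differences of prolonged induction from control were 0.35 ± 0.28 and 0.30 ± 0.21, and neither passed. APG8A read 294 and 338 in control, 567 and 409 in the prolonged group and 343 and 360 in the temporal group. Its difference in the prolonged group, 0.61 ± 0.18, did not pass (limma adjusted p = 0.0711).

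The third subgroup encodes ATG8 proteins that are known to end at the glycine to which the lipid is joined, so that they need no trimming by ATG4. ATG8H read 46.3 and 31.9 in control, 61.0 and 60.2 in the prolonged group and 53.3 on both temporal arrays. Its groups did not overlap, but the control arrays differed from each other by 0.54 on the log2 scale, and the difference of 0.66 ± 0.41 in the prolonged group did not pass (limma adjusted p = 0.422). APG8H read 280 and 256 in control, 421 and 484 in the prolonged group and 420 and 422 in the temporal group. It rose after prolonged induction, by 0.75 ± 0.15 on the log2 scale (limma adjusted p = 0.0137). With it and APG8A, 4 of the 9 measured ATG8 genes rose in the prolonged group, and all 9 had both prolonged arrays above both controls. The shares over all probe sets tested were 3.77% and 23.2%. These counts describe the same selected family and are no added evidence.

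ATG3, the enzyme that transfers ATG8 to the lipid, did not pass in any comparison. It read 139 and 97.0 on the control arrays, 121 and 114 on the prolonged arrays and 108 and 116 on the temporal arrays, so the controls enclosed all 4 induced arrays. The log2 difference of prolonged induction from control was 0.02 ± 0.25, with a 95% interval of −0.54 to 0.58.

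Temporal induction was set against control to find what differed 24 h after 1 spray. The controls are the same arrays as in the comparison above, so the values are given side by side and their likeness is no separate evidence. ATG8E rose, from 104 ± 17.2 to 212 ± 7.60, a log2 difference of 1.03 ± 0.23 (limma adjusted p = 0.0397), against 1.20 after prolonged induction. It was the only one of the 8 to pass, where 1.7% of all probe sets tested rose and 0.729% fell. The median log2 difference of the 8 was 0.46, against 0.00 over all probe sets tested. Both temporal arrays lay above both controls for 6 of the 8, where 22.7% of all probe sets tested did.

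Among the members that did not pass in this comparison, ATG8B had the largest difference, 0.93 ± 0.28 (limma adjusted p = 0.126), against 0.35 after prolonged induction. ATG8C had 0.52 ± 0.21 (adjusted p = 0.268) and ATG8F 0.45 ± 0.14 (adjusted p = 0.156), against 0.89 and 0.63. The other members ran from −0.06 for ATG3 to 0.47 for ATG8H. Outside the rule, APG8H had 0.65 ± 0.15 (adjusted p = 0.0517) and APG8A 0.16 ± 0.18, and neither passed.

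**Figure D2:**
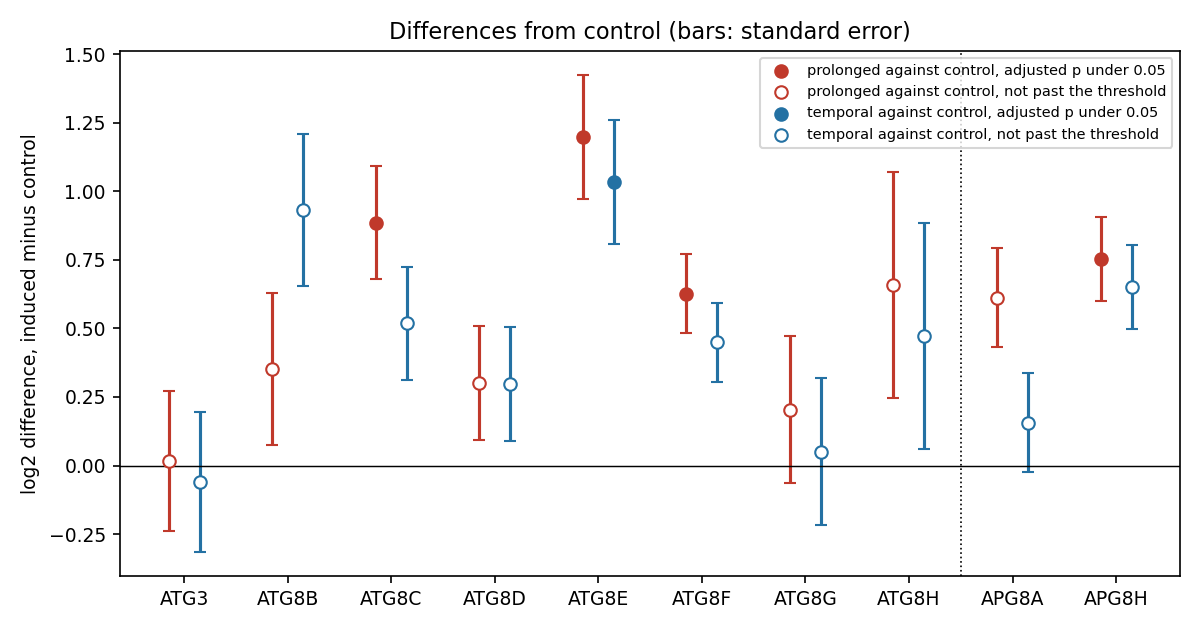
Log2 difference from control after prolonged and temporal induction, with standard errors from the limma fit, for the 8 ATG genes and, right of the dotted line, APG8A and APG8H. Filled points passed an adjusted p of 0.05, and both comparisons use the same control arrays. ATG8E is filled in both, and ATG3 lies near 0 in both.

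The direct comparison of prolonged with temporal induction gave no call among the 8 in limma, where 0.0879% of all probe sets tested passed in either direction. At an unadjusted p under 0.05 were 0 of the 8, against 5.9% of all probe sets tested. APG8A, outside the rule, was under that limit. It was higher in the prolonged group by 0.45 on the log2 scale (95% interval 0.06 to 0.85), but did not pass (limma adjusted p = 0.758). The 95% interval of the log2 difference, prolonged minus temporal, ran from −0.33 to 0.66 for ATG8E, from −0.09 to 0.82 for ATG8C, from −0.14 to 0.49 for ATG8F and from −1.19 to 0.03 for ATG8B. These intervals leave room for differences between the induced groups, so their levels are not shown to be alike. Both prolonged arrays lay above both temporal arrays for 4 of the 8 (16.8% of all probe sets tested) and below them for 1 of the 8, ATG8B (18.2% of all probe sets tested). The mean log2 signal of ATG8B was lower by 0.58 in the prolonged group (limma adjusted p = 0.855). The order with prolonged highest, temporal next and control lowest was seen in the mean signals of ATG8C, ATG8D, ATG8E, ATG8F, ATG8G and ATG8H. No share over all probe sets stands beside this order, so it is a description and no sign of a graded response. In ATG8D the 2 induced means, 191 ± 31.6 and 190 ± 17.2, differed by less than the spread between replicates, as did those of ATG8E and of ATG8F, and in ATG8G so did temporal induction and control.

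**Figure D3:**
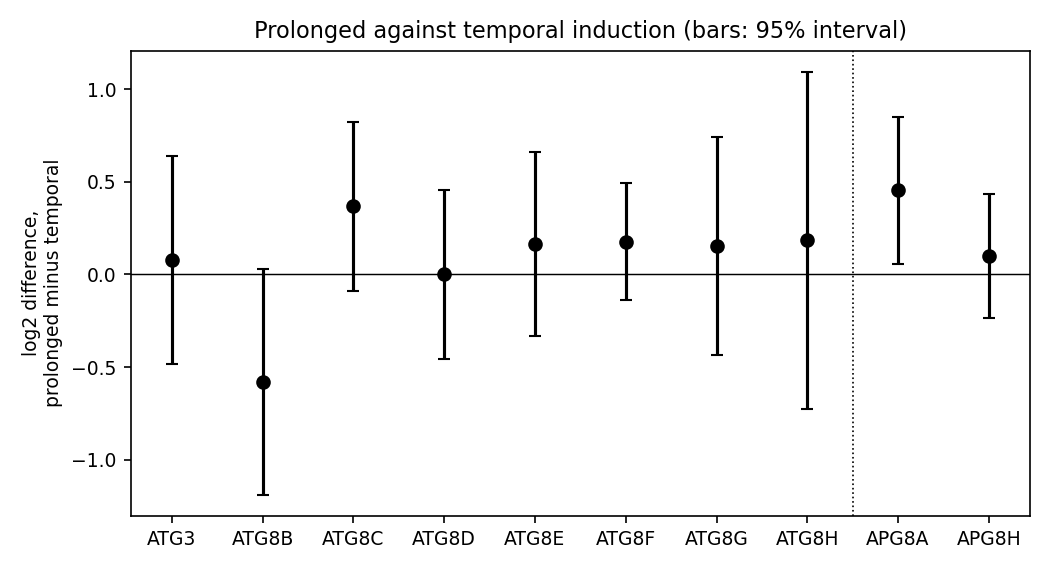
Log2 difference of prolonged minus temporal induction with its 95% interval from the limma fit, for the 8 ATG genes and, right of the dotted line, APG8A and APG8H. The intervals of all 8 include 0, and the point of ATG8B is the only one of the 8 below it. The interval of APG8A lies above 0, but its adjusted p did not pass.

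The spread between replicates went the same way for all 8 members in the control group. Control replicate 1 lay above control replicate 2 in 8 of 8 ATG probe sets, by a median of 0.28 on the log2 scale, while over all probe sets tested it was higher in 49.8%. For the genes outside the rule, replicate 1 minus replicate 2 was 0.13 in APG8H but −0.20 in APG8A. Between the prolonged replicates 5 of 8 were higher in replicate 1, and between the temporal replicates 3 of 8. The median log2 difference of the 8 in the prolonged group was 0.65 against control replicate 2 alone and 0.29 against control replicate 1 alone. In the temporal group these medians were 0.54 and 0.28. Prolonged replicate 1 held the highest signal of all 6 arrays for ATG8C, ATG8E and ATG8F, and its actin 3' to 5' ratio was also the highest, 6.14, against 4.45 on prolonged replicate 2, 4.19 on both control arrays and 3.19 and 5.22 on the temporal arrays. Its part in the result was not tested.

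The calls rest on few arrays. Without prolonged replicate 1 none of the 3 genes passed in the prolonged group, with log2 differences of 0.95 for ATG8E (adjusted p = 0.0811), 0.69 for ATG8C (0.162) and 0.47 for ATG8F (0.127). Without prolonged replicate 2 all 3 passed. ATG8C did not pass without either control array (0.0826 and 0.0823) or either temporal array (0.0527 and 0.0536), and ATG8F not without control replicate 2 (0.116) or either temporal array (0.0535 and 0.0530). A temporal array does not enter this difference, and its omission changes only the estimate of the spread. ATG8E passed in the prolonged group without any 1 array other than prolonged replicate 1. In the temporal group ATG8E did not pass without control replicate 2 (0.135) or either temporal array (0.216 and 0.251).

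**Figure D4:**
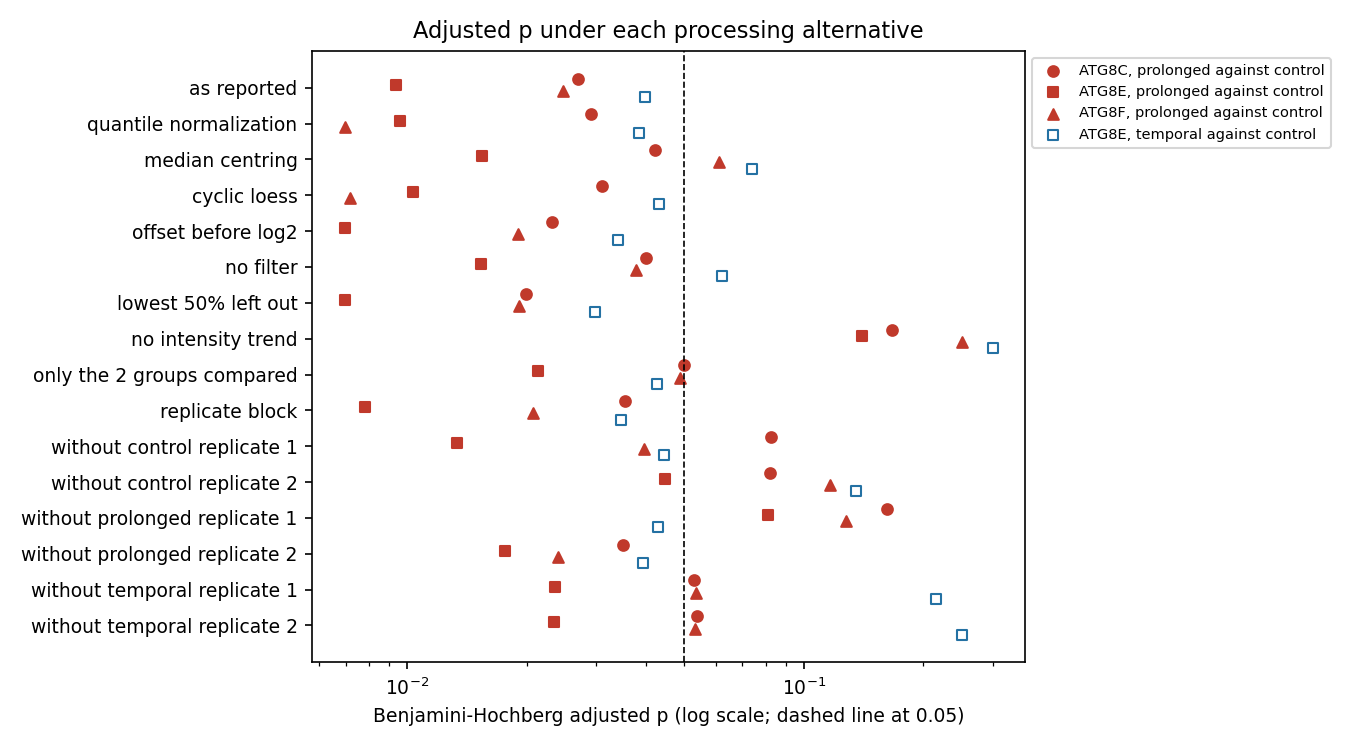
Benjamini-Hochberg adjusted p on a log axis for ATG8C, ATG8E and ATG8F after prolonged induction and ATG8E after temporal induction, as reported and under each of 15 processing alternatives. Points left of the dashed line, at 0.05, pass. Without the intensity trend or without prolonged replicate 1, the 3 points of prolonged induction lie right of it.

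The 3 members that passed in a comparison followed each other closely over the 6 arrays, which share both the group differences and the array scale. They were picked for a rise on these same arrays, so a high r among them follows in part from that choice. Pearson's r of log2 signal was 0.985 between ATG8E and ATG8F, 0.964 between ATG8C and ATG8F and 0.945 between ATG8C and ATG8E, over 6 arrays. With ATG8E, r was 0.910 for ATG8H, 0.907 for APG8H, 0.730 for APG8A, 0.683 for ATG8G, 0.660 for ATG8B, 0.616 for ATG8D and 0.176 for ATG3. Ranked among all tested probe sets with 1 symbol, these stood at percentiles 96.7, 96.5, 87.9, 85.7, 84.6, 82.6 and 62.1, in that order. Among the other 8875 tested probe sets with 1 symbol, the most like ATG8E were those of EIN3 (AT3G20770), a transcription factor of ethylene signalling (r = 0.996), AT4G14270 (0.994) and AT1G02300 (0.993). EIN3 read 150 and 133 in control, 327 and 255 in the prolonged group and 243 and 262 in the temporal group, so all 4 of its induced arrays also lay above its controls. ATG8F was most like the mitochondrial complex I subunit gene nad4L (0.996), AT1G10590 (0.995) and AT2G32090 (0.994). ATG8C was most like AT1G71970 (0.994), AT4G32340 (0.989) and AT1G23390 (0.988). These correlations over 6 arrays are a description and carry no test.

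Other genes of autophagy were taken from a list of 38 core autophagy genes. Of these, 18 were matched to a probe set by locus code through the array's annotation, the 8 members, APG8A and APG8H among them. A listed gene without a match, here and in the lists below, may still have a probe set on the array. Besides these 10 genes, 8 probe sets were tested, and none passed in limma in any of the 3 comparisons. Of these 8, 1 had an unadjusted p under 0.05 in the prolonged group, against 20.0% of all probe sets tested, 1 in the temporal group, against 14.7%, and 0 between the induced groups. These counts are no higher than the shares over all probe sets. Their median log2 difference from control was 0.19 after prolonged and 0.07 after temporal induction, and 5 of the 8 were positive in each. Both prolonged arrays lay above both controls for 2 of the 8. They lay below for 2, AT3G18770 (−0.29) and a probe set of AT2G37840 (−0.28, against 0.38 in its other probe set). Of all 15922 probe sets tested, 3688 lay above and 3914 below in this way. AT5G66930, annotated as ATG101 and known as a subunit of the ATG1 kinase complex that starts autophagosome formation, had mean signals of 116 ± 22.2 in control, 180 ± 72.6 in the prolonged group and 150 ± 7.24 in the temporal group. Its prolonged arrays overlapped with the controls, and its difference of 0.59 ± 0.29 did not pass (limma adjusted p = 0.280). AT3G61960, which carries only its locus name in the files, had the smallest p of these 8 in the prolonged group, with a difference of 0.79 ± 0.33 (adjusted p = 0.201). AT1G77890 had the smallest p in the temporal group, with a difference of 1.63 ± 0.73 (limma adjusted p = 0.332), against 1.11 ± 0.73 after prolonged induction. Its mean in control was low, 18.4 ± 12.8. A second probe set of this gene lay under the limit for low signals and was highest in control, with means of 16.3 in control, 8.17 in the prolonged group and 10.5 in the temporal group.

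Of 6 listed vacuolar proteases 3 were matched to a probe set and 2 tested. GAMMA-VPE (AT4G32940) encodes the vacuolar processing enzyme gamma, a cysteine protease of vegetative tissue that matures other vacuolar proteins. It read 888 and 959 on the control arrays, 2615 and 2219 on the prolonged arrays and 1975 and 1792 on the temporal arrays, with no overlap between the 3 groups. It rose by 1.38 ± 0.13 on the log2 scale after prolonged induction (limma adjusted p = 0.000164) and by 1.03 ± 0.13 after temporal induction (limma adjusted p = 0.00282). The second tested protease gene, BETA-VPE, did not pass in either comparison, with means of 27.7 in control, 25.3 in the prolonged group and 31.7 in the temporal group. ALPHA-VPE, the third matched gene, lay under the limit for low signals and was not tested. It read 31.4 and 33.4 in control, 15.8 and 15.5 in the prolonged group and 15.3 and 22.5 in the temporal group. All its induced arrays thus lay below both controls. GAMMA-VPE did not pass without the intensity trend in either comparison (adjusted p = 0.0817 prolonged and 0.254 temporal), nor in the temporal group without temporal replicate 1 (adjusted p = 0.0610).

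RAPTOR1 (AT3G08850) is a partner protein of the TOR kinase, which restrains autophagy when nutrients are ample. Of 8 genes listed for TOR and SnRK1, only RAPTOR1 was matched to a probe set. It read 110 and 101 in control, 170 and 182 in the prolonged group and 193 and 192 in the temporal group. All 4 induced arrays lay above both controls, with log2 differences of 0.73 ± 0.20 (limma adjusted p = 0.0529) and 0.87 ± 0.20 (adjusted p = 0.0503), and neither passed. The lists held 4 genes for the phosphatidylinositol 3-kinase complex, 9 for receptors and adaptors and 8 for senescence and darkness. Only 1 gene of each was matched to a probe set, and none of these passed in any comparison.

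**Figure D5:**
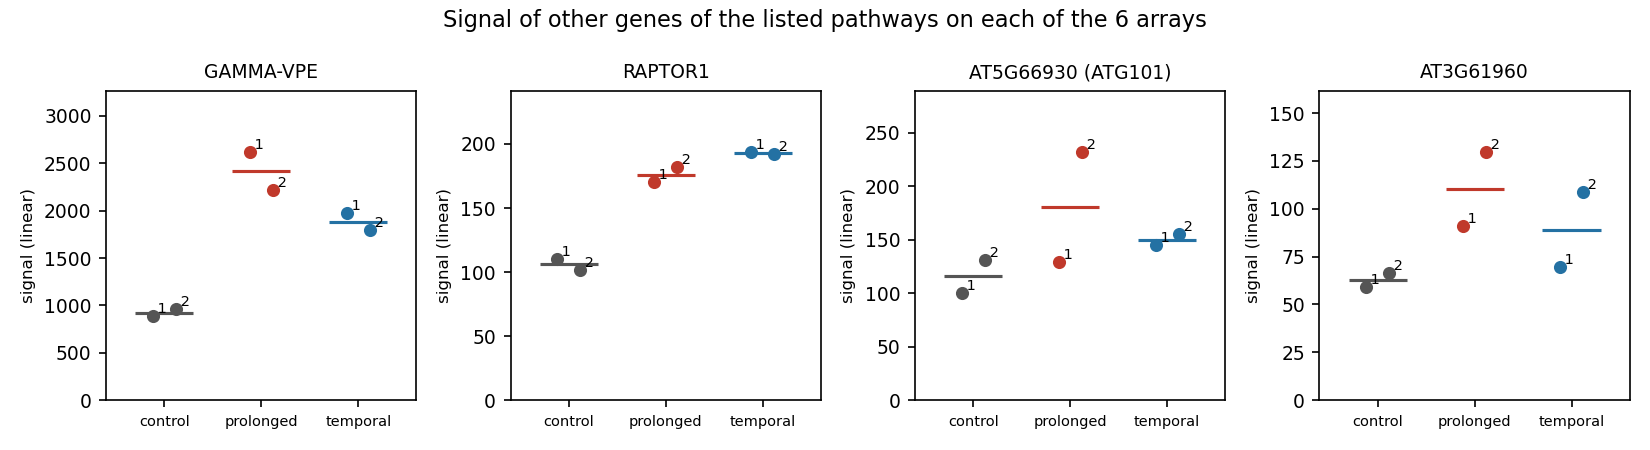
Signal on a linear scale for GAMMA-VPE, RAPTOR1, AT5G66930 and AT3G61960, with points for the 2 arrays of each group, numbered by replicate, and lines for the group means. For GAMMA-VPE and RAPTOR1 all 4 induced arrays lie above both controls.

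Genes listed for organs which whole seedlings can hold were read beside these values. None of 3 root genes passed in limma in either comparison with control. At an unadjusted p under 0.05 were 3 in the prolonged group, against 20.0% of all probe sets tested, and 1 in the temporal group, against 14.7%. Both arrays of each induced group lay below both controls for all 3. Of all 15922 probe sets tested, 3914 lay below both controls in this way after prolonged and 3756 after temporal induction. The log2 difference of prolonged induction from control was −1.36 ± 0.42 for EXPA7 (adjusted p = 0.0834), −1.93 ± 0.54 for EXPA18 (0.0575) and −0.45 ± 0.17 for PYK10 (0.169). After temporal induction it was −0.99 for EXPA7, −0.15 for EXPA18 and −0.25 for PYK10. Without prolonged replicate 1, EXPA18 (0.0456) and PYK10 (0.0257) passed as lower in the prolonged group, and EXPA18 also did with an offset of 23.5 added to the signals before log2 (0.0485). The summed signal of the 3 root genes EXPA7, EXPA18 and PYK10 was 4172 and 4813 in control, 3872 and 2679 in the prolonged group and 3784 and 3698 in the temporal group. Nearly all of it was PYK10, with 4006 and 4660 in control. Of 4 genes listed for flower and anther, AGL24 and ATA27 were matched to a probe set. Whether either marks such tissue in these seedlings was not tested. AGL24 read 21.3 and 21.0 in control, 74.6 and 44.8 in the prolonged group and 79.9 and 81.4 in the temporal group. ATA27 read 3.98 and 20.5 in control, 89.7 and 116 in the prolonged group and 75.0 and 69.7 in the temporal group. On both control arrays each of these 2 was under the limit of 23.5 for low signals, so both entered the fit through their induced arrays. For ATA27, control replicate 1 minus control replicate 2 was −2.36 on the log2 scale, so the size of its differences depends on the control array. ATA27 rose after prolonged induction, by 3.50 ± 0.70 on the log2 scale (limma adjusted p = 0.0126), but did not pass without either prolonged array (0.0854 and 0.108) or without the intensity trend (0.139). After temporal induction its difference was 3.00 ± 0.70 (adjusted p = 0.0504), which passed with the replicate block (0.0332), with the offset (0.0247) and without either control array (0.0491 and 0.00160). AGL24 did not pass in either comparison (adjusted p = 0.0860 prolonged and 0.0516 temporal), other than with the offset in the temporal group (0.0460). The part of these markers in the differences of the ATG8 genes was not tested.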

How the data were processed

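The intensity signals of 6 arrays, 1 per probe set and array on a linear scale, were deposited by the authors and made with MAS5 and GCOS per the submitters' processing notes. Versions and settings are not given in the sources used, and detection calls were not used. Per the labels, targets were made with the one-cycle protocol, which starts from the 3' end of transcripts. The number of arrays, 2 a group, limits precision. The smallest two-sided p of an exact rank test on 2 against 2 arrays is 0.333.

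Of 22810 probe sets, 64 Affymetrix controls were left out. Names came from a table of the array's annotation, and locus codes from RefSeq's TAIR10.1 annotation, matched by gene number. The tests ran on log2 signals. A filter removed 30% of the probe sets, those lowest in mean log2 signal, and the other 15922 entered the fit (limma 3.58.1, R 4.3.3, lmFit and eBayes with an intensity trend, 3 residual and 7.96 prior degrees of freedom). Tables and figures were made in Python 3.11.15 with matplotlib 3.10.9. The members and lists were chosen with earlier results of these data known. The genes named are all members, of each list those that passed and up to 4 with the smallest p, and the 3 probe sets most like each member that passed.

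The fit was tested on simulated data, 15922 probe sets with 200 changed, where the test of prolonged induction against control found 17% of changes of 1 log2 unit and 70% of changes of 2. In the data 1107 probe sets passed in that comparison, so the adjusted p cuts at a different point there. These shares check the code and do not give the share of real changes found. Alternatives changed the array scaling (quantile, median centring, cyclic loess), added 23.5 before log2, dropped the filter or raised it to 50%, dropped the intensity trend, fitted 2 groups alone, blocked on the replicate number, or omitted 1 array. No sequence is shown.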

Additional observations from a re-analysis of the deposited data

How the results depend on the processing

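Of 15 alternatives, the replicate block, quantile normalization, cyclic loess, the offset, the filter at 50% and the fit of 2 groups left the counts of ATG genes that passed at 3 after prolonged and 1 after temporal induction. With these settings 812 to 1200 of all probe sets passed after prolonged and 357 to 457 after temporal induction. The filter at 50% left 11373 probe sets to test, 7 of them ATG, as ATG8H fell out. Median centring gave 2 after prolonged induction, where ATG8F did not pass (adjusted p = 0.0610), and 0 after temporal induction in limma (3 at an unadjusted p under 0.05, with 2188 of all probe sets), with 856 and 249 of all probe sets passing. Without the filter the count was 3 after prolonged and 0 after temporal induction (4 at an unadjusted p under 0.05, with 2742 of all probe sets), with 880 and 282 of 22746 probe sets passing. Without the intensity trend 0 ATG genes passed in any comparison, where 47 of all probe sets passed after prolonged induction, 0 after temporal induction and 0 between the induced groups in limma. At an unadjusted p under 0.05 that setting held 4, 2 and 0 of the 8 and 2659, 1874 and 812 of all probe sets in these comparisons. The cause of these changes was not tested. Between the induced groups 24 of all probe sets passed in the fit of 2 groups. Leaving out 1 array at a time gave 0 to 3 ATG genes after prolonged induction, with 633 to 897 of all probe sets and a median log2 difference of the 8 from 0.29 to 0.65. It gave 0 to 1 after temporal induction, with 56 to 366 of all probe sets, and 1 to 18 of all probe sets between the induced groups. The members' median stayed positive in all 3 comparisons under all 15 alternatives.

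No value whose sign turned had passed. Leaving out 1 array moved the log2 difference of ATG3 from −0.24 to 0.28 after prolonged and from −0.32 to 0.20 after temporal induction, and that of ATG8G from −0.065 to 0.16 after temporal induction. Between the induced groups it moved ATG8D from −0.17 to 0.17, ATG8E from −0.078 to 0.41, APG8H from −0.000277 to 0.20, AT5G66930 from −0.22 to 0.63, AT3G61960 from −0.00252 to 0.64, EXPA7 from −0.80 to 0.061 and PYK10 from −0.47 to 0.071. Cyclic loess put ATG8D at −0.00703 between the induced groups.

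Outside the rule, APG8H did not pass after prolonged induction without the intensity trend (0.177), control replicate 2 (0.0682) or prolonged replicate 2 (0.0699), and APG8A passed without prolonged replicate 2 (0.0341). RAPTOR1 passed with the filter at 50% (0.0392 after prolonged and 0.0377 after temporal induction) and, after temporal induction, with the offset (0.0463). With the same 2 settings APG8H passed after temporal induction (0.0416 and 0.0455). Deviations of same-numbered arrays correlated at 0.01 (control and prolonged), 0.01 (control and temporal) and −0.06 (prolonged and temporal). Same-numbered arrays thus showed no strong shared shift, which does not settle whether they were grown or processed together. With the replicate block 3, 1 and 0 ATG genes and 1046, 374 and 17 of all probe sets passed in the 3 comparisons.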
